A study of Mus musculus with 9 samples.

Results

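Lung transcripts of GFP-LC3 mice, a strain that carries the autophagy protein LC3 fused to green fluorescent protein, were compared between 3 libraries made after 3 weekly whole-brain exposures to X-rays and 3 libraries made after sham irradiation. Each exposure was 10 Gy at 2 Gy per min. The genes compared were those with a mean expression of at least 0.5 FPKM (fragments per kilobase of transcript, scaled to library depth) over these 6 libraries, which kept 14284 of the 22564 genes in the deposited table. The genes nearest the threshold were Nim1 at 0.5009 FPKM inside it and Clnk at 0.4999975 FPKM outside. The study's question is how the lung, which lay outside the beam, is affected by exposure of the brain. The labels give no time from the last exposure to collection, no age, no sex and no schedule for sham treatment, so exposure cannot be told apart from differences in these. Nothing states that the libraries of a group came from separate animals, so the p-values measure the spread between these samples, which may be technical.

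The lung is a mixture of alveolar and airway epithelium, capillary endothelium, fibroblasts, smooth muscle, resident macrophages and blood cells, with cardiac muscle in the walls of its large veins. Immediate early genes, many of which encode transcription factors, are switched on within minutes by growth factors, stretch, stress hormones, cyclic AMP or tissue handling. Their transcripts are short-lived. Fibroblasts make the collagens and elastic fibres of the lung scaffold, and alveolar type 2 cells make surfactant. In whole tissue, fewer cells of a type and less RNA per cell cannot be told apart.

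The libraries held 4987828 to 7381008 fragments. Lung markers were present in each: Sftpc, the surfactant protein of type 2 cells, was 4505, 5068 and 4017 CPM (TMM-normalized counts scaled to library depth) in sham libraries 1, 2 and 3, and 4562, 6646 and 6760.2 CPM in libraries 1, 2 and 3 after exposure (the exposed libraries). Some libraries stood apart. Sham library 1 lay between the other sham libraries for 71.6% of 13021 genes. The share was 15.7% for sham library 2, 12.7% for sham library 3 and 29.9 to 36.7% in the exposed group. Its squared distance from the mean of the other 2, over counting variance, had a median of 0.176, where counting error alone gives 0.455. It thus lay nearer to their mean than counting error alone gives at the median gene. Nothing states whether it is an independent sample and this was not tested, so an n of 3 for the sham group is uncertain. Results are also given without sham library 1. It was rich in skeletal muscle transcripts, whose list summed to 4016, 62.1 and 40.7 CPM in sham libraries 1, 2 and 3 and 27.4, 25.2 and 26.5 CPM in the exposed libraries. The fast myosin Myh4 was 808, 0 and 0 CPM in the sham libraries and 0 in all exposed libraries. Exposed library 3 had 0 fragments of the Y-linked genes Ddx3y, Kdm5d, Uty and Eif2s3y, which the other 5 libraries expressed, and it held fat transcripts, with the adipocyte hormone Adipoq at 0.176, 2.05 and 138 CPM in exposed libraries 1, 2 and 3. Mitochondrially encoded transcripts made up 5.82% of fragments in exposed library 1 and 1.84 to 3.10% elsewhere.

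**Figure D1:**
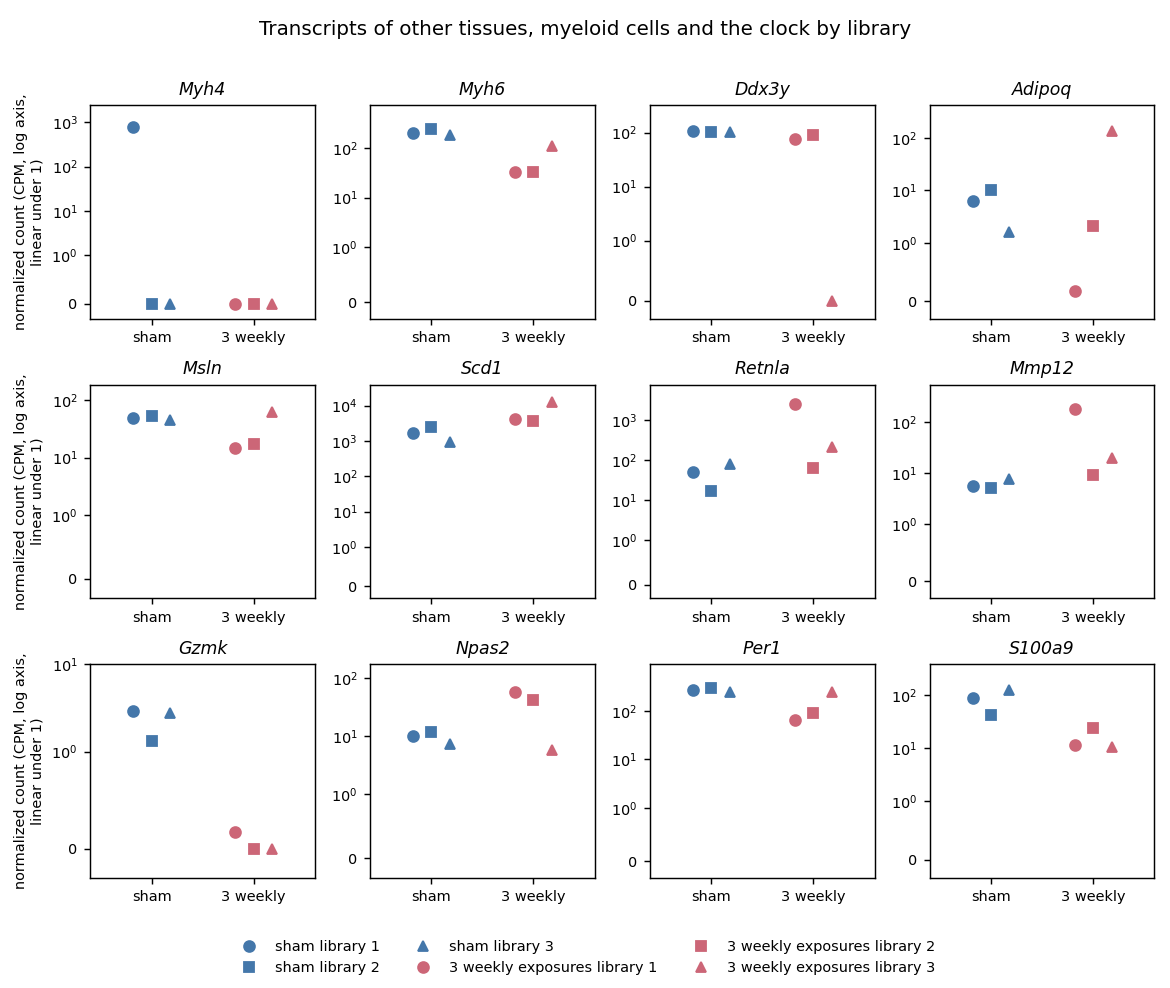
Normalized counts (CPM, logarithmic above 1 and linear below) of 12 transcripts of muscle, fat, mesothelium, myeloid cells, the Y chromosome and the clock, one point per library. Myh4 was seen in sham library 1 alone, Ddx3y was at 0 in exposed library 3 alone, Adipoq was 138 CPM there, and Mmp12 was 178 CPM in exposed library 1.

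Across all genes, 2 passed an adjusted p under 0.05 by edgeR's quasi-likelihood test, both lower after exposure (0.014% of the genes tested), and none passed in the higher direction (0%). The first was Gvin1, a very large interferon-inducible GTPase. Gvin1 (chromosome 7, 106156556 to 106215326 in GRCm38) was 121, 123 and 101 CPM in sham libraries 1, 2 and 3 and 29.9, 29.2 and 28.3 CPM in the exposed libraries. The groups did not overlap and the exposed libraries lay within 2 CPM of each other. It fell by 1.98 on the log2 scale (SE 0.12, adjusted p = 0.0041), and without sham library 1 it fell by 1.94 (adjusted p = 0.0343). Gvin1 has close copies in the genome, so that its level is uncertain. One of them, Gm4070, had 216, 230 and 209 fragments in the sham libraries and 162, 182 and 161 in the exposed libraries, and did not pass the test (log2 fold change -0.58 ± 0.14, adjusted p = 0.167). The second was Klf4, a zinc-finger transcription factor of the immediate early class that is prominent in endothelium and epithelium. Klf4 (chromosome 4, 55527143 to 55532466 in GRCm38) was 252, 266 and 246 CPM in the sham libraries and 85.7, 77.8 and 106 CPM in the exposed libraries. Its means were 255 ± 10.2 CPM (SD, n = 3) and 89.7 ± 14.3 CPM (SD, n = 3), and the groups did not overlap. It fell by 1.51 on the log2 scale (SE 0.13, adjusted p = 0.0302). The same size of difference without sham library 1 (-1.51) had an adjusted p of 0.135. Leaving out sham library 2 ended the call of Gvin1 (adjusted p = 0.0562), and leaving out any single library but exposed library 3 ended that of Klf4 (adjusted p from 0.054 to 0.172).

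Below that threshold the table held many smaller differences. At an unadjusted p under 0.05 there were 2000 genes (14%), 1034 higher (7.24%) and 966 lower (6.76%) after exposure. Without sham library 1 there were 860 (6.02%), 411 higher (2.88%) and 449 lower (3.14%), and 1 gene was called. The groups did not overlap for 3094 genes (21.7%), with 1535 higher (10.7%) and 1559 lower (10.9%). Without exposed library 3 there were 967 higher (6.77%) and 1080 lower (7.56%). DESeq2 called 327 genes (2.3%), 133 higher and 194 lower, and 63 of these without sham library 1 (0.442%). The median log2 fold change over all genes was 0.02. The lists below are read against these shares, and none of their members other than Klf4 passed the adjusted test of edgeR. An adjusted p of 0.0571 was shared by 17 genes, among them Sox4, Fosl2, Dll1, Csrnp1, Adamts2, Nr4a3, Crem and Bpifa1.

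**Figure D2:**
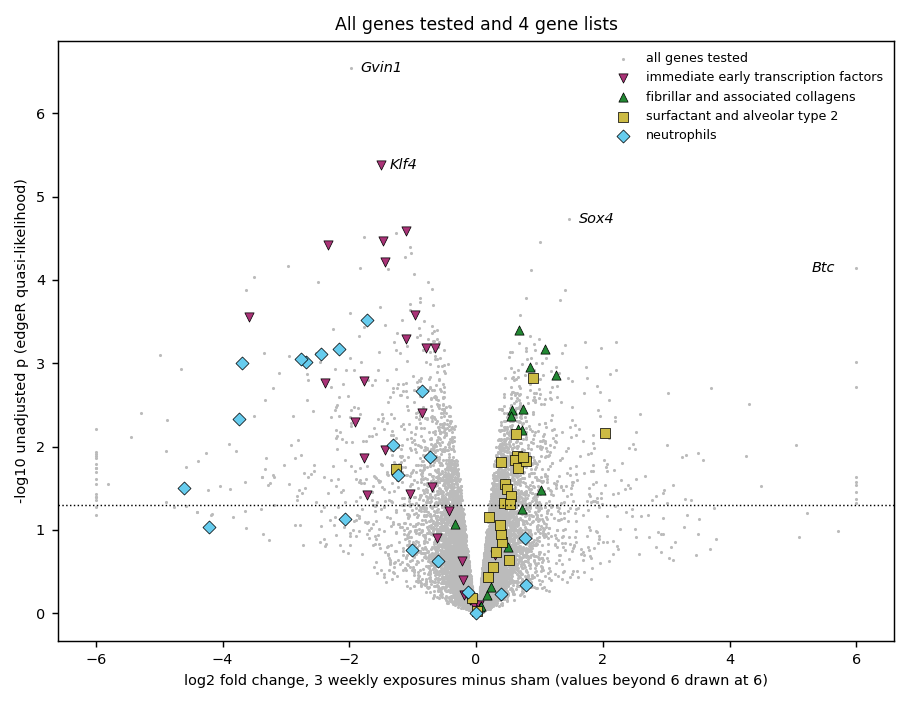
Log2 fold change against -log10 of the unadjusted p for all genes tested (grey), with 4 gene lists in colour and the dotted line at a p of 0.05. Of the 28 immediate early genes 26 lie left of 0 and of the 17 collagens 16 lie right of it, while Gvin1 and Klf4 are the 2 called genes.

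Immediate early transcription factors lay lower after exposure as a list, which also holds early response genes of other kinds such as Zfp36 and Apold1. Of 28 measured genes 26 had a lower mean after exposure, 19 at an unadjusted p under 0.05 and none higher, and 17 had groups that did not overlap. The median log2 fold change was -1.0, and without sham library 1 it was -1.0 with 18 genes at that p. DESeq2 called 14 of them, and 10 without sham library 1. Relative to the sham mean, the list's median stood at 0.01, 0.28 and -0.27 in sham libraries 1, 2 and 3 and at -1.08, -0.82 and -0.94 in exposed libraries 1, 2 and 3, on the log2 scale, so all exposed libraries lay below all sham libraries. Among the members named by the smallest p, Fosl2, an AP-1 subunit, was 282, 325 and 254 CPM in the sham libraries and 137, 124 and 141 CPM in the exposed libraries (log2 fold change -1.10 ± 0.12, adjusted p = 0.0571). Csrnp1, a cysteine- and serine-rich nuclear protein, was 46.7, 47.5 and 48.5 CPM and 15.3, 14.6 and 21.5 CPM in the same order (-1.47 ± 0.17, adjusted p = 0.0571). Both were tight within each group, with the lowest sham library well above the highest exposed library. Csrnp1 shared its deposited locus with another gene, which makes its values uncertain.

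The orphan nuclear receptors of the NR4A family spread more widely. Nr4a3 was 77.2, 107 and 52.6 CPM in the sham libraries and 18.8, 12.6 and 15.7 CPM in the exposed libraries (log2 fold change -2.33 ± 0.28, adjusted p = 0.0571). Nr4a1 was 149, 229.9 and 61.6 CPM and 16, 25.3 and 42.8 CPM (-2.39 ± 0.51, adjusted p = 0.142). For both, sham library 2 was highest and sham library 3 lowest of the sham group, yet no exposed library reached sham library 3. Other members of the list went the same way with smaller values. Klf2, the flow-responsive factor of endothelium, had a log2 fold change of -1.11 ± 0.20, Klf6 one of -0.79 ± 0.14, Junb, an AP-1 subunit, one of -0.65 ± 0.12, and Zfp36, which destabilizes cytokine mRNAs, one of -0.96 ± 0.15. The largest was that of Apold1, an endothelial early response gene, at 28.1, 43.4 and 10.9 CPM in the sham libraries and 3.69, 1.92 and 1.33 CPM in the exposed libraries (-3.58 ± 0.57, adjusted p = 0.106).

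The lists next to it in the signalling chain were less uniform. Of 20 cAMP and CREB targets 9 were lower at an unadjusted p under 0.05 and none higher, with a median of -0.42. Without exposed library 3 there were 10 lower and 1 higher. Crem, which encodes the cAMP-responsive modulator and its early repressor form, was 29.1, 31.3 and 28.4 CPM in the sham libraries and 13.5, 14 and 13.5 CPM in the exposed libraries (-1.11 ± 0.14, adjusted p = 0.0571), with less than 1 CPM between the exposed libraries. Pde4b, a phosphodiesterase that degrades cAMP, was 195, 188 and 205 CPM and 61.5, 104 and 96.2 CPM (-1.17 ± 0.19, adjusted p = 0.108). Of 16 feedback inhibitors and targets of the ERK kinases, 5 were lower and 1 was higher (0 higher without exposed library 3). Dusp8, a phosphatase of stress-activated kinases, was 72, 84.1 and 71.1 CPM and 22.1, 28.8 and 35.3 CPM (-1.40 ± 0.18, adjusted p = 0.0571). Spry4, a Sprouty inhibitor of receptor tyrosine kinase signalling, had a log2 fold change of -1.04 ± 0.16, and Errfi1, an inhibitor of the EGF receptor, one of -1.26 ± 0.23. The one on the other side was Etv5, an ETS factor that type 2 cells also express, at 0.61 ± 0.20. Among YAP and TEAD targets, Ctgf, a matricellular protein, was 332, 332 and 340.1 CPM in the sham libraries and 74.8, 150.3 and 126 CPM in the exposed libraries (-1.51 ± 0.23, adjusted p = 0.0907), and Thbs1, thrombospondin, was 841, 1176 and 548 CPM and 287, 243 and 359 CPM (-1.53 ± 0.28). That list as a whole was divided, with 4 lower and 2 higher of 18 and a median of -0.04. The higher members numbered 0 without sham library 1 and 1 without exposed library 3.

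**Figure D3:**
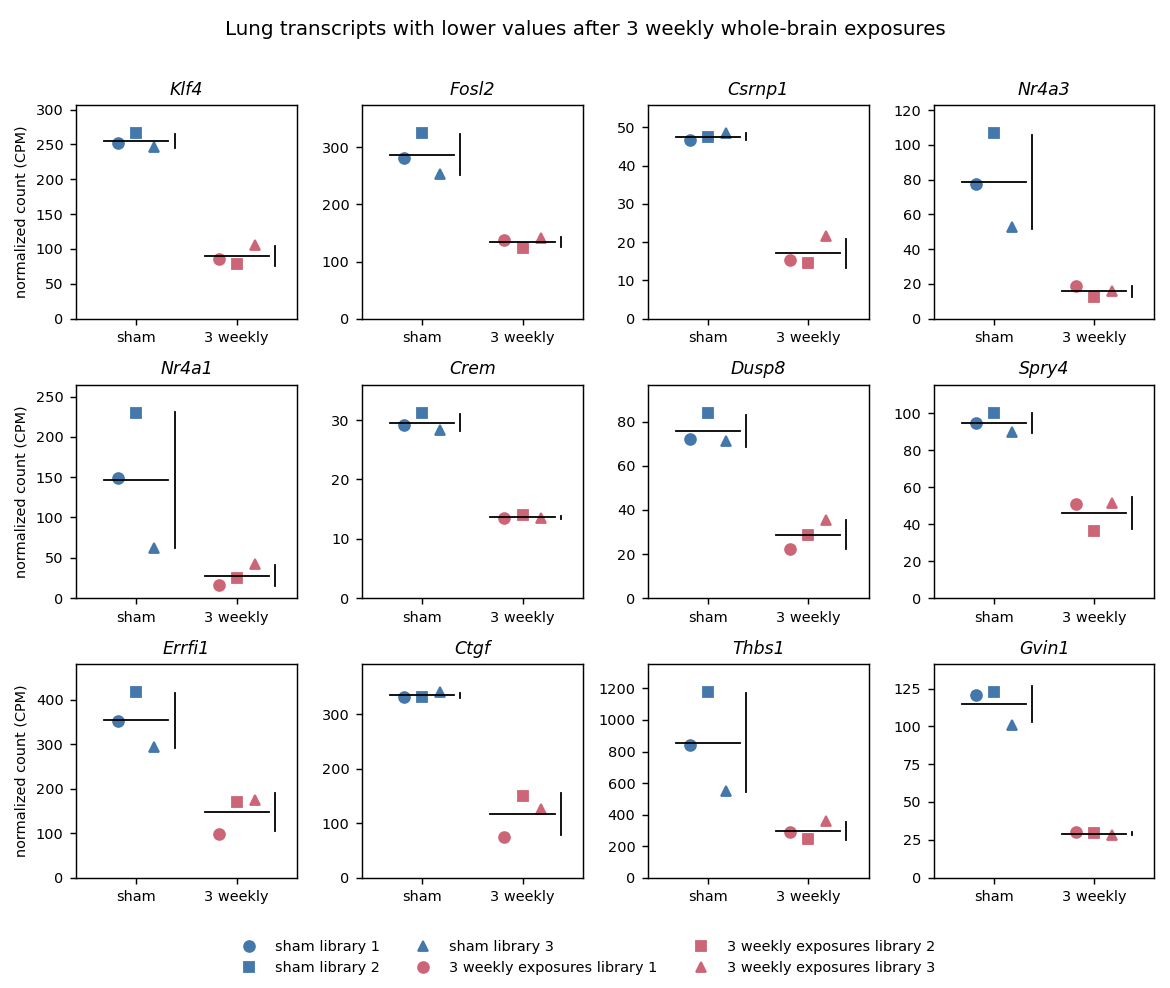
Normalized counts (CPM) of 12 genes with lower values after exposure, one point per library, with group means as horizontal bars and 1 SD as vertical bars (n = 3). In each panel the lowest sham library lies above the highest exposed library.

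Because these genes lay lower together, their promoters were searched for the cAMP response element. The same search covered the TATA box, the CArG box and the AP-1, heat shock and interferon-response motifs. RefSeq windows of 250 bases before to 50 after the start (GRCm38.p6) were matched for 10408 of the genes tested. The half-site TGACG, on either strand, was present in 30.3% of them and in 13 of 22 immediate early promoters (59.1%). It was about as frequent in 9 of 15 promoters of cAMP and CREB targets (60.0%) and 11 of 22 of heat shock chaperones. The ERK and interferon lists were searched too. They lay nearer to the share of all windows, with 5 of 13 promoters (38.5%) and 6 of 23 (26.1%). The cAMP list shares Fosb and Nr4a1 with the immediate early list. The full palindrome TGACGTCA, which contains the half-site on both strands, was present in 3.03% of all windows and in 1 of the 22. Of the other motifs, the TATA box was in 22.7% of the 22 and 7.44% of all windows, and the CArG box in 9.09% and 1.38%. The heat shock motif was in 9.09% and 5.75%, the interferon-response motif in 4.55% and 3.18%, and the AP-1 motif in 0% and 5.13%. These differences were not tested. The 13 immediate early genes with a half-site had a median log2 fold change of -1.51 and the 9 without one had -0.22, while over all windows the medians were -0.01 with and 0.03 without. The medians were -1.14 with and -0.07 without a half-site for the cAMP and CREB targets, but 0.12 with and -0.35 without for the chaperones. The lists were chosen with earlier results of these data known, so these splits support nothing independently. No split was made for the ERK and interferon lists, nor by any motif other than the half-site. Klf4, Nr4a3 and Dusp8 are shown as the called gene, the immediate early gene with the most half-sites of those examined and the phosphatase with the full palindrome, all 3 chosen after their motifs were seen. The sequences run 5′ to 3′ on the strand of the gene, with TGACG or its reverse complement in capitals.
Klf4 promoter, chr4:55532426-55532725, minus strand: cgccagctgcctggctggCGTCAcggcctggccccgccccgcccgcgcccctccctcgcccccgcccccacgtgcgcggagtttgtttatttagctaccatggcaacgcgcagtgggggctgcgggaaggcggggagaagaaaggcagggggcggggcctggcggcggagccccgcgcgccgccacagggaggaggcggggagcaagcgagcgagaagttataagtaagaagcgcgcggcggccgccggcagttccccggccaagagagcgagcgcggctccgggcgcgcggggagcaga
Nr4a3 promoter, chr4:48045055-48045354, plus strand: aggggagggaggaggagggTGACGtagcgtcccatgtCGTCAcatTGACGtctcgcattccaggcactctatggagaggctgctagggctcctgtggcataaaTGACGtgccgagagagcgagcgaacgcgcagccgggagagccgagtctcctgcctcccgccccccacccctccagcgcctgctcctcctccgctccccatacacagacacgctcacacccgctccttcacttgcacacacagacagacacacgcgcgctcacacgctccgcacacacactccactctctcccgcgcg
Dusp8 promoter, chr7:142095235-142095534, minus strand: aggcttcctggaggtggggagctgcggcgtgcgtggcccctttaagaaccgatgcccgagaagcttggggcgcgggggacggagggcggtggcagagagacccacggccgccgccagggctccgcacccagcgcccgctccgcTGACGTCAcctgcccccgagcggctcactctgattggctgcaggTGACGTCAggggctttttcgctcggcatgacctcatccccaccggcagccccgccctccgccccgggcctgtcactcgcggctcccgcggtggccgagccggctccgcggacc
The Klf4 window held 1 half-site, beginning 232 bases upstream of the start. The Nr4a3 window held 4, beginning 231, 213, 205 and 147 bases upstream, a number reached by 0.538% of all windows. Dusp8 held 2 full palindromes, beginning 107 and 63 bases upstream. A match in letters describes the window and does not show that a factor binds there.

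Heat shock chaperones were divided. Of 27 genes 7 were lower at an unadjusted p under 0.05 and none higher, with a median of -0.11. The median by exposed library was 0.09, -0.14 and -0.36, and without exposed library 3 the list had 4 higher, 5 lower and a median of 0.08. Dnajb4, a cytosolic co-chaperone, was 115, 122 and 112 CPM in the sham libraries and 48.6, 64.6 and 57.3 CPM in the exposed libraries (-1.03 ± 0.13, adjusted p = 0.0571). Hspa1a, the inducible HSP70 whose reads are shared with its near-identical neighbour Hspa1b, was 52.7, 42.6 and 66.6 CPM and 18.3, 5.89 and 10.2 CPM (-2.25 ± 0.38, adjusted p = 0.118). Bag3, an HSP70 co-chaperone, had a log2 fold change of -0.63 ± 0.14. In the endoplasmic reticulum, 6 of 25 chaperones and folding enzymes were higher and 3 lower. These counts were 3 and 1 without sham library 1 and 13 and 4 without exposed library 3. Sdf2l1, a chaperone cofactor, was 5.5, 6.44 and 6.36 CPM in the sham libraries and 18.1, 15.6 and 14.5 CPM in the exposed libraries (1.40 ± 0.20, adjusted p = 0.0731), and Calr, calreticulin, had 0.57 ± 0.11. Atf4, the transcription factor of the integrated stress response, lay on the other side at -0.60 ± 0.12.

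Genes that respond to glucocorticoids lay lower in part, with 10 of 26 lower, none higher and a median of -0.43. The list shares Errfi1 and Nfkbia with lists above and below. Slc10a6, a steroid sulphate transporter, was 36.1, 36.6 and 30.8 CPM in the sham libraries and 8.43, 15.9 and 13.8 CPM in the exposed libraries (-1.43 ± 0.24, adjusted p = 0.117). Relative to the sham mean the list's median was -1.03, -0.53 and -0.38 in exposed libraries 1, 2 and 3. Of 30 NF-kB feedback and cytokine genes 6 were lower and 3 higher. Ptgs2, the inducible cyclooxygenase, was 45.8, 52.8 and 38.5 CPM and 24.2, 13.6 and 18.5 CPM (-1.29 ± 0.23, adjusted p = 0.118), Nfkbia, the inhibitor of NF-kB, had -0.72 ± 0.14, and Sele, E-selectin of activated endothelium, had -2.16 ± 0.54. Of 79 cytosolic ribosomal protein genes 32 were lower, none higher (1 higher without exposed library 3) and 39 did not overlap, with a small median of -0.25. Without sham library 1 there were 23 lower. DESeq2 called 15 of the 79, and 0 without sham library 1. Rps20 was 89, 83.1 and 88.8 CPM in the sham libraries and 56.2, 55.2 and 51.6 CPM in the exposed libraries (-0.68 ± 0.10, adjusted p = 0.0895). These short transcripts have many pseudogene copies, which makes their counts uncertain.

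Genes of the matrix lay in the opposite direction. Of 17 fibrillar and associated collagens 16 had a higher mean after exposure, 10 at an unadjusted p under 0.05, none lower, and 10 did not overlap. Their median log2 fold change was 0.65. Without sham library 1 it was 0.66 with 9 genes at that p, and without exposed library 3 it was 0.53 with 9. DESeq2 called 8 of them, and 3 without sham library 1. Col3a1, a fibrillar collagen, was 507, 575 and 455 CPM in the sham libraries and 1126, 824 and 1316 CPM in the exposed libraries (1.09 ± 0.20, adjusted p = 0.118). Col6a3, of the beaded filaments that surround cells, was 235, 255 and 221 CPM and 378, 349.5 and 404 CPM (0.67 ± 0.11, adjusted p = 0.118). Col5a1, which sets fibril diameter, was 67.5, 85.4 and 61.6 CPM and 142, 105 and 139.9 CPM (0.85 ± 0.17, adjusted p = 0.128). Exposed library 2 was the lowest exposed library for all 3, and still above every sham library. Col1a1, the main fibrillar collagen, was 218, 217 and 219 CPM in the sham libraries, nearly level, and 636, 308 and 627 CPM in the exposed libraries (1.26 ± 0.26).

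The enzymes that mature collagen were divided, with 8 of 30 higher and 1 lower. Without either of sham library 1 or exposed library 3 they were 5 and 0. Adamts2, the protease that trims the amino-terminal propeptide of procollagen, was 52.9, 54 and 51.1 CPM in the sham libraries and 106, 93.8 and 118 CPM in the exposed libraries (1.01 ± 0.12, adjusted p = 0.0571). Serpinh1, the collagen chaperone HSP47, was 162, 160.4 and 152 CPM and 249, 311 and 259.8 CPM (0.79 ± 0.12, adjusted p = 0.0847). Both were tight in the sham group, and exposed values began well above it. Of 18 elastic fibre genes 6 were higher and none lower, with a median of 0.35. Exposed library 3 was the highest, with a list median of 0.61 against 0.16 and 0.27 in exposed libraries 1 and 2, and without it there were 5 higher, 2 lower and a median of 0.08. Fbn1, the fibrillin of microfibrils, had a log2 fold change of 0.72 ± 0.14, Mfap5, a microfibril-associated glycoprotein, one of 0.79 ± 0.15, and Ltbp3, which stores latent TGF-beta, one of 0.54 ± 0.14. In basement membrane 4 of 28 were higher, with Hspg2, perlecan, at 0.65 ± 0.18 and Col4a1 at 0.45 ± 0.12. None was lower, but 1 was without exposed library 3. Fibroblast and myofibroblast markers counted 5 higher and 1 lower of 26, and the fibroblast receptor Pdgfra, shown as a tissue marker, was 489.6, 469 and 516 CPM in the sham libraries and 311, 650.5 and 353 CPM in the exposed libraries, so that the groups overlapped. The marker counts were 3 and 0 without sham library 1 and 4 and 2 without exposed library 3.

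Matrix proteases and their inhibitors lay on both sides, with 8 higher and 6 lower of 33. Adamts9, a protease of proteoglycans, was 252, 233 and 279.7 CPM in the sham libraries and 139, 123 and 110.2 CPM in the exposed libraries (-1.04 ± 0.13, adjusted p = 0.0571), and Adamts1, of the same group, was 348, 499 and 209 CPM and 78.5, 101 and 158 CPM (-1.64 ± 0.35). The neutrophil collagenase Mmp8 had -2.76 ± 0.53. Among growth factors, Igf1, insulin-like growth factor, was 45.3, 43.9 and 44.1 CPM in the sham libraries and 122, 77.9 and 132 CPM in the exposed libraries (1.32 ± 0.20, adjusted p = 0.0867). All sham libraries lay within 2 CPM of each other and exposed library 2 was again the lowest of its group. Btc, the EGF receptor ligand betacellulin, had 0 fragments in each sham library after rounding and 30, 62 and 36 fragments in exposed libraries 1, 2 and 3. Against a floor of 3 fragments over the sham group, it was at least 36.5-fold higher after exposure. The members at 0 in every library of one group and at 5 or more fragments in each of the other numbered 3, and were chosen after their values were seen. The others were Gm9958 with 22, 17 and 10 fragments and Pagr1b with 16, 12 and 7 in the exposed libraries. All 3, Btc included, were at 0 in the sham libraries. They reached the FPKM threshold through the exposed libraries alone, so their differences support nothing independently. Pagr1b is a near copy of Pagr1a, and its counts are uncertain. By the same rule, genes outside the FPKM threshold lay on both sides. Spc24 was at 0 in the sham libraries. Col19a1, with 9, 7 and 6 fragments in the sham libraries, and Gen1, with 12, 11 and 9, were at 0 in the exposed libraries.

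**Figure D4:**
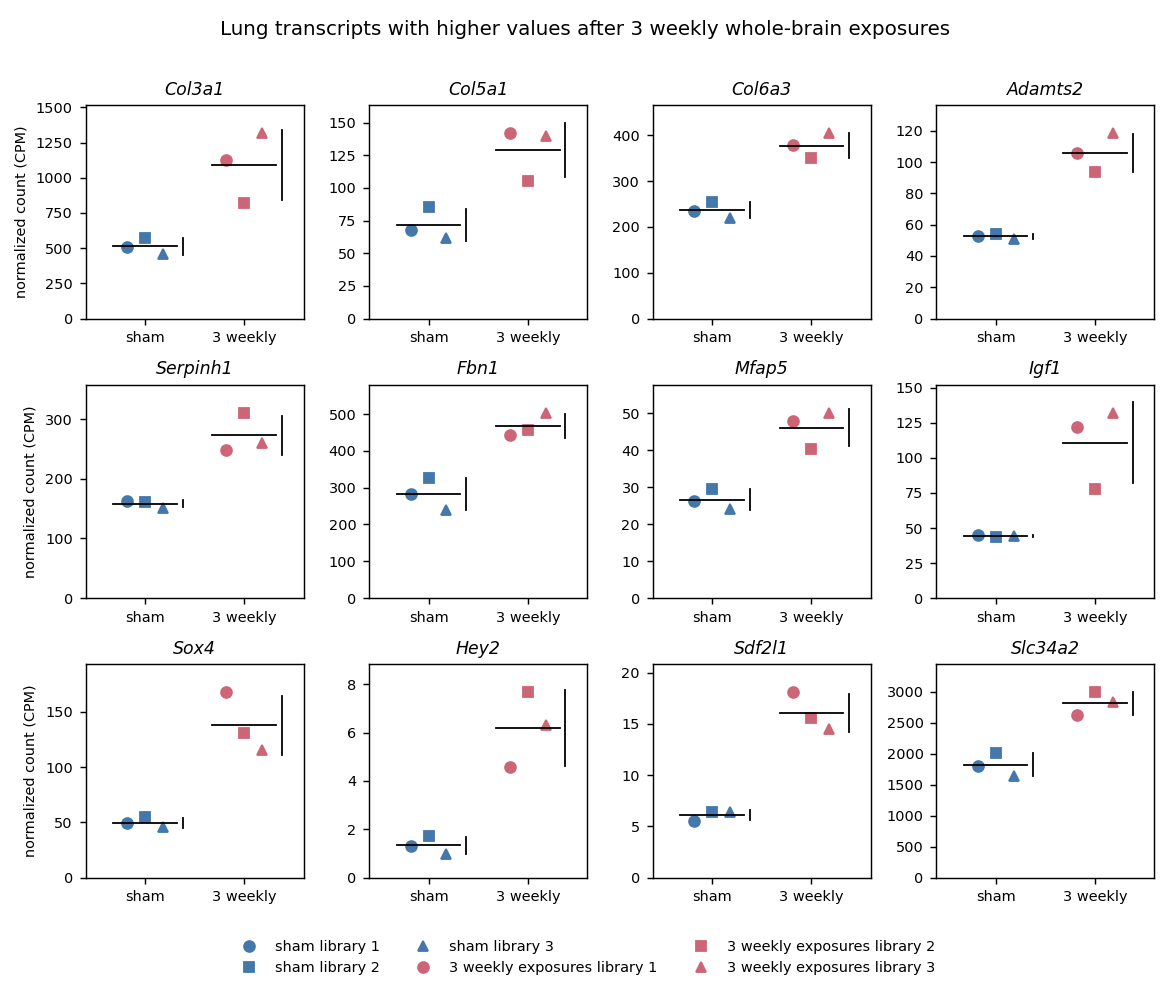
Normalized counts (CPM) of 12 genes with higher values after exposure, one point per library, with group means as horizontal bars and 1 SD as vertical bars (n = 3). In each panel the lowest exposed library lies above the highest sham library.

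Developmental signalling genes included the gene with the smallest p in the higher direction. Sox4, a transcription factor of progenitor cells, was 49.2, 54.5 and 45.5 CPM in the sham libraries and 168, 130.5 and 116 CPM in the exposed libraries (1.47 ± 0.16, adjusted p = 0.0571). Of 10 SOX factors 4 were higher and none lower (1 lower without exposed library 3), with Sox18, an endothelial factor, at 34.1, 21.4 and 45.1 CPM and 57.6, 95.8 and 91.4 CPM (1.28 ± 0.29) and Sox11 at 0.76 ± 0.21. In the Notch pathway 6 were higher and 2 lower of 24. The lower members numbered 1 without sham library 1. Dll1, a ligand, was 62.4, 60.2 and 62 CPM in the sham libraries and 23.7, 22.9 and 30.3 CPM in the exposed libraries (-1.26 ± 0.14, adjusted p = 0.0571). The target gene Hey2, a repressor of arterial endothelium, was 1.29, 1.7 and 0.993 CPM and 4.57, 7.67 and 6.33 CPM (2.20 ± 0.39, adjusted p = 0.118), and its relative Hey1 was 22.3, 13.4 and 30.6 CPM and 44.1, 50.5 and 56.1 CPM (1.18 ± 0.27). Heyl, a further target, had 0.54 ± 0.13, Nrarp, a target that acts as a feedback inhibitor, had -0.37 ± 0.15, and Rbpj, the DNA-binding partner of Notch, had 0.40 ± 0.10. All 13 measured hedgehog genes had a higher mean, 5 at an unadjusted p under 0.05, which became 1 without sham library 1 and 3 without exposed library 3. They were led by Gli3, a transcription factor of the pathway, at 0.61 ± 0.17, Sufu, its inhibitor, at 0.40 ± 0.14, and Shh, the ligand, at 0.81 ± 0.31.

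Of 31 genes of general and capillary endothelium 7 were higher and none lower, although the list's median by library ran from -0.31 in exposed library 1 to 0.44 in exposed library 2. Kit, the stem cell factor receptor of capillary cells, was 125, 121 and 139.7 CPM in the sham libraries and 222, 261 and 184 CPM in the exposed libraries (0.79 ± 0.14, adjusted p = 0.118), and Aplnr, the apelin receptor, was 23.8, 30.5 and 14.7 CPM and 66, 50.9 and 59.3 CPM (1.35 ± 0.25). Pecam1, expressed by all endothelium, was 545, 545 and 559 CPM and 389, 783 and 531 CPM, with the sham libraries inside the exposed range. Of vessel regulators, Tbxa2r, the thromboxane receptor, had 2.11 ± 0.43, and Bdkrb1, the inducible kinin receptor, had -1.99 ± 0.38. Of the clotting factors, F5 was at 32.2, 28.6 and 37 CPM in the sham libraries and 9.83, 13.7 and 12 CPM in the exposed libraries (-1.45 ± 0.18, adjusted p = 0.0571), and F8 at -0.99 ± 0.20. Axon guidance genes, which also pattern vessels, counted 8 higher and 1 lower of 40, with Plxna1, a semaphorin receptor, at 0.44 ± 0.11. The counts were 4 and 1 without sham library 1 and 6 and 3 without exposed library 3. Among the 10 genes of smallest p in the higher direction outside these lists, Pvrl1, the adhesion protein nectin, had 0.87 ± 0.11, Pcdh17, a protocadherin, 0.70 ± 0.11, and Cd180, a Toll-like receptor relative of B cells and macrophages, 0.85 ± 0.15. In the lower direction, Mpp3, a membrane scaffold protein, had -1.76 ± 0.20.

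In the epithelium, alveolar type 2 genes lay higher and secretory airway genes lower in part. Of 25 surfactant and type 2 genes 23 had a higher mean, 14 at an unadjusted p under 0.05 and 1 lower, with a median of 0.45. Without sham library 1 the count was 7, and without exposed library 3 it was 7. DESeq2 called 3 of the list, and 1 without sham library 1. Hc, complement C5, was 554, 666 and 462 CPM in the sham libraries and 1090.5, 1176 and 867 CPM in the exposed libraries (0.90 ± 0.19, adjusted p = 0.137). Slc34a2, the phosphate transporter of type 2 cells, was 1806, 2015 and 1643 CPM and 2623, 2992 and 2830.3 CPM (0.63 ± 0.17, adjusted p = 0.2). Scd1, the desaturase that fat also expresses, was 1685, 2403 and 959 CPM and 4285, 3603 and 12755 CPM (2.03 ± 0.56), and had 1.23 without exposed library 3. Sftpc itself overlapped between the groups (0.40 ± 0.24). Type 1 cell genes counted 0 higher and 1 lower of 21, and Ager, their main marker, had 0.00 ± 0.22.

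Of 26 club and secretory airway genes 6 were lower and 1 higher, and 3 were lower without sham library 1. Bpifa1, an antimicrobial lipid-binding protein of the upper airway, was 259.6, 364 and 164 CPM in the sham libraries and 23.2, 26.6 and 51.6 CPM in the exposed libraries (-2.96 ± 0.38, adjusted p = 0.0571). Cyp2a5, a cytochrome P450 of club cells, was 159, 178 and 126 CPM and 31.3, 28.3 and 72.6 CPM (-1.81 ± 0.35, adjusted p = 0.125). Exposed library 3 was the highest of its group for both and lay below every sham library. The club cell secretoglobin Scgb1a1 was 35009, 39434 and 32445 CPM and 28573, 24540.0 and 35387 CPM, so the groups overlapped, and ciliated cell genes counted 1 higher and 0 lower of 28, with 0 higher when either library was left out. In lipid metabolism, cholesterol synthesis had 6 higher and 1 lower of 22 (4 and 2 without exposed library 3), with Dhcr7 at 1.00 ± 0.23 and Fdps at 0.93 ± 0.22. Fatty acid and triglyceride synthesis had 5 higher of 22 and a median of 0.60, which was 0.04 without exposed library 3, with 3 higher and 3 lower, and 3 were higher without sham library 1. The adipocyte list, with a median of 1.78, stood at -2.04 without that library. None of its 17 genes reached an unadjusted p under 0.05 in all 6 libraries, and 9 were lower at that p without exposed library 3. The part of fat tissue in these values was not tested. Fatty acid oxidation had 6 lower and none higher of 20, among them Cpt1a, which admits fatty acids to mitochondria, at -0.50 ± 0.12 and Fabp3, a fatty acid carrier of heart muscle, at -2.46 ± 0.48.

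Blood and immune lists divided by cell type. Of 21 neutrophil genes 12 were lower and none higher, with a median of -1.31. The list's median was -1.12, -1.24 and -1.16 in exposed libraries 1, 2 and 3. Its sum was 861, 607 and 1170 CPM in the sham libraries and 1005, 376 and 483 CPM in the exposed libraries. By that sum exposed library 1 lay within the sham range. S100a9, an abundant calcium-binding protein of neutrophils, was 85.6, 41.1 and 125 CPM in the sham libraries and 11.4, 23.7 and 10.5 CPM in the exposed libraries (-2.45 ± 0.46, adjusted p = 0.118). Retnlg, a neutrophil resistin-like protein, was 24.6, 11.6 and 35 CPM and 5.27, 6.02 and 4.5 CPM (-2.16 ± 0.40, adjusted p = 0.118). Sham library 2 was the lowest sham library for both, and sham library 3 the highest. Trem1, an activating receptor, had -1.72 ± 0.28. DESeq2 called 8 of the list, and 4 without sham library 1. Of 27 platelet and megakaryocyte genes 11 were lower and none higher, with a median of -0.69. Treml1, a platelet granule receptor, had -2.94 ± 0.56 and Itga2b, the platelet integrin, -1.46 ± 0.39. Gzmk, a granzyme of cytotoxic lymphocytes, had 18, 7 and 14 fragments in the sham libraries and 1, 0 and 0 in the exposed libraries, and Igj, the joining chain of secreted antibodies, was 591, 694 and 503 CPM and 43.5, 234 and 175 CPM (-1.98 ± 0.51).

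Lists of antigen-presenting cells lay the other way, least so in exposed library 2. Of 26 dendritic cell genes 11 were higher and 1 was lower, with a median of 0.45, and 8 were higher without sham library 1. DESeq2 called 4 of them, and 0 without sham library 1. Fscn1, fascin of mature dendritic cells, was 15.5, 14.4 and 20.9 CPM in the sham libraries and 39.7, 25.7 and 48.3 CPM in the exposed libraries (1.16 ± 0.26, adjusted p = 0.149). Irf8, a factor that dendritic cells need, was 66.5, 63.6 and 79.7 CPM and 114, 88.7 and 140.0 CPM (0.71 ± 0.18). For both, exposed library 2 lay nearest the sham group. The list's median by exposed library was 0.84, 0.09 and 0.42. Of 14 MHC class II genes 4 were higher and none lower (2 higher without sham library 1), led by H2-Ab1 at 0.76 ± 0.23. Their median by exposed library was 0.55, -0.01 and 0.52, so exposed library 2 stood near the sham mean. Alveolar macrophage genes counted 9 higher and none lower of 24, with Ear2, an eosinophil-type ribonuclease, at 22.2, 29.7 and 18.9 CPM and 81, 46.6 and 47.6 CPM (1.30 ± 0.27) and Mrc1, the mannose receptor, at 0.49 ± 0.14. Without sham library 1 there were 5 higher, and without exposed library 3 5 higher and 2 lower. DESeq2 called 2 of the alveolar macrophage genes, and 0 without sham library 1. Exposed library 1 stood apart here: Mmp12, macrophage elastase, was 178, 9.17 and 19.8 CPM in the exposed libraries and 5.66, 5.11 and 7.55 CPM in the sham libraries. Retnla, an alternative activation marker named after its values were seen, was 2552, 62.6 and 219 CPM and 49.7, 17.2 and 81.1 CPM in the same order. Interferon response genes counted 6 higher and none lower of 32, with Rtp4 at 1.09 ± 0.25, while Gvin1 lay in the opposite direction. Without sham library 1 the count was 2. The interferon list's median by exposed library was 0.38, -0.03 and 0.17. Proliferation genes counted 6 higher of 38, 2 without sham library 1 and 3 without exposed library 3, and their median was 1.04, -0.15 and 0.45 in exposed libraries 1, 2 and 3.

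The clock list differed by library within the exposed group. Of 18 circadian clock genes 1 was higher and 2 were lower. Their median stood at -0.86, -0.86 and 0.04 in exposed libraries 1, 2 and 3, and without exposed library 3 the counts were 4 higher and 10 lower. Per1, a repressor of the clock that also responds to cAMP and glucocorticoids, was 270.0, 307 and 252 CPM in the sham libraries and 65.5, 89.3 and 249 CPM in the exposed libraries. Npas2, an activator of the clock, was 9.87, 11.6 and 7.35 CPM and 56.4, 41.3 and 5.66 CPM. In both, exposed library 3 lay at or just below the sham range and exposed libraries 1 and 2 far outside it. The immediate early list did not follow this division, with -0.94 in exposed library 3. Whether the clock values bear on the other lists was not tested.

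Heart muscle transcripts lay lower in every exposed library. All 28 measured genes had a lower mean, 21 at an unadjusted p under 0.05, with a median of -1.96 and one of -1.81 without sham library 1. DESeq2 called 12 of them, and 5 without sham library 1. Myh6, the atrial myosin, was 207, 244 and 183 CPM in the sham libraries and 33.5, 32.6 and 108 CPM in the exposed libraries (-1.86 ± 0.45, adjusted p = 0.167). Pln, the calcium pump regulator phospholamban, was 22.5, 29.5 and 14.3 CPM and 1.76, 0.821 and 3.33 CPM (-3.50 ± 0.48, adjusted p = 0.063). Their sum over the list was 2359, 1875 and 1205 CPM in the sham libraries and 426, 339 and 786 CPM in the exposed libraries. These libraries are also those of the lower immediate early, airway and neutrophil lists, and the part of cardiac muscle content in those lists was not tested. Skeletal muscle genes had a median of -7.82, and of -0.58 without sham library 1. Mesothelial genes had a median by exposed library of -1.14, -0.66 and 0.85, with exposed library 3 the only one above the sham mean. None of 14 reached an unadjusted p under 0.05, and 8 were lower at that p without it.

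**Figure D5:**
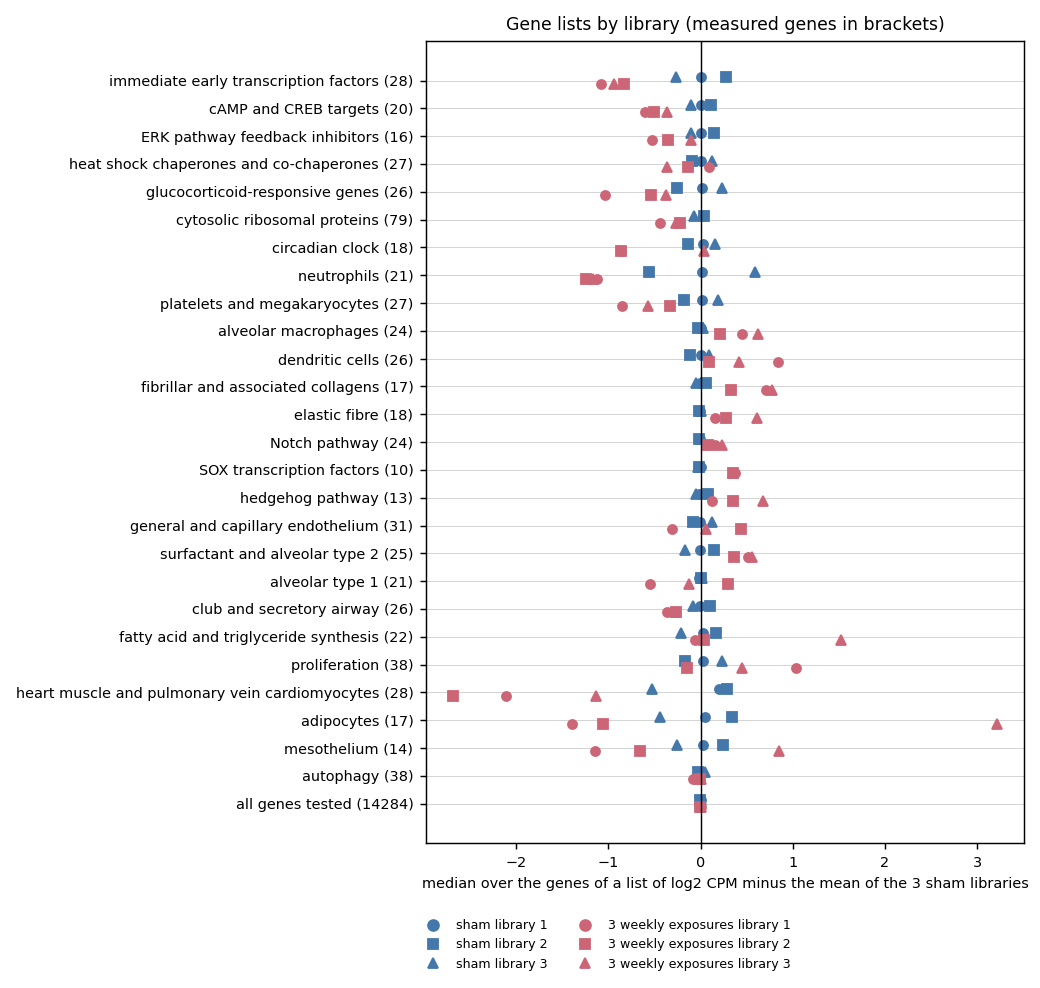
Median over the genes of each list of the difference in log2 CPM from the mean of the sham libraries, one point per library, for 26 lists and all genes tested. Immediate early, neutrophil and heart muscle lists lie left of 0 in every exposed library and collagens lie right of it. Adipocytes lie right of 0 in exposed library 3 and left of it in exposed libraries 1 and 2. Fatty acid synthesis lies far right in exposed library 3 and near 0 in exposed libraries 1 and 2.

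Autophagy, the process that the LC3 reporter marks, showed little. Of 38 measured autophagy genes 1 was higher and 0 lower at an unadjusted p under 0.05, with a median of -0.06. Without sham library 1 the counts were 0 and 0. The one gene seen with all 6 libraries was Uvrag, a regulator of the lipid kinase that starts autophagosomes, at 62.3, 61.4 and 66.4 CPM in the sham libraries and 88.9, 76.1 and 81.4 CPM in the exposed libraries (0.37 ± 0.11, adjusted p = 0.216). Lysosomal genes counted 8 higher and 1 lower of 35, with Lipa, the acid lipase, at 0.44 ± 0.10 and Npc2, a cholesterol carrier, at 0.39 ± 0.10. These counts were 4 and 0 without sham library 1 and 5 and 1 without exposed library 3. Of 29 p53 targets and damage response genes 4 were lower and 1 was higher, with a median of -0.01, and 0 was higher without exposed library 3. Btg2, an antiproliferative target, had -0.85 ± 0.21 and Tnfrsf10b, a death receptor, -1.34 ± 0.33.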

How the data were processed

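Per the labels' protocols, lungs were frozen, RNA was isolated with Trizol and depleted of ribosomal RNA, and stranded libraries were sequenced for 150 cycles. Per the submitters' processing notes, cutadapt 1.9.3 and HISAT2 2.0.4 were used with the mouse build mm10. No source used here names the quantification program. Per the file headers, the deposited table gives an FPKM and a count per gene and library. The authors' deposited counts are estimated counts that were not whole: every library has its own step, from 0.854 to 1.19, of which the values are multiples. Dividing by it brought 92.0 to 93.2% of values within 0.1 of a whole number, and the quotients were rounded to fragments. Intervals and floors cover counting error only.

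Genes with a mean of at least 0.5 FPKM entered 1 edgeR 4.0.16 quasi-likelihood fit with TMM factors over the 6 libraries, without the other 3 libraries of the series, with 4 residual degrees of freedom. The biological coefficient of variation was 0.232. P-values were adjusted by Benjamini-Hochberg over all 14284 genes. DESeq2 1.42.0 and limma 3.58.1 were alternatives. Standard errors (SE) were derived from the F statistic of each gene. The pipeline was tested on simulated counts, drawn independently for each library with the same coefficient of variation for all genes. That test does not cover the closeness of sham library 1 to the other sham libraries. Coordinates are from GENCODE M21 (GRCm38, the same assembly as mm10), and 14144 genes had them. Of the genes tested, 4216 shared a deposited locus with another gene and 92 had a repeated symbol, so their values are uncertain. Named genes that shared a locus include Csrnp1, Adamts9, F5, Pln, Hspa1a, Hey2, Aplnr, Cd180, Gzmk and Cx3cr1.

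The genes and the 67 lists were chosen with earlier results of these data known, and support nothing independently. Genes named are the 10 per direction with the smallest unadjusted p among those whose groups did not overlap, the 3 of smallest p in each list and a few tissue markers. Others were chosen after their values were seen, to show a role. Counts in lists refer to an unadjusted p under 0.05. A gene of the nerve list is not reported here and was left out of its counts.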

Additional observations from a re-analysis of the deposited data

How the results depend on the processing

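Of 14284 genes, 2 were called. DESeq2 called 327, limma on log2(FPKM + 1) or log2(FPKM + 0.1) called 0 each (1710 and 1688 at an unadjusted p under 0.05), filterByExpr 9, and no filter 19. Leaving out each library in turn gave 0 to 14 called genes and 860 to 2685 at an unadjusted p under 0.05, where all 6 libraries gave 2000. Chosen after seeing the data, DESeq2 without sham library 1 called 63 and 832 had an unadjusted p under 0.05, and leaving out sham library 1 and exposed library 3 together gave 1 and 853. With the replicate number as a block, 3 genes were called and 1597 had an unadjusted p under 0.05, and Klf4 had an adjusted p of 0.0802. The deviations of same-numbered libraries from their group means had correlations of -0.067 to 0.0047. These deviations sum to 0 within each group of 3, so the check cannot exclude a pairing. RLE size factors, a minimum of 1 FPKM and rounding without the step called 2 each.

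Gvin1 was called in 13 of 17 alternatives, with an adjusted p of 0.0151 to 0.0562 without 1 library, and Klf4 in 8 of 17, with 0.0264 to 0.172. The cause of these differences was not tested. Signs turned for 8 of 201 named genes. Retn was -0.48 and Adipoq -0.037 with limma and a pseudocount of 0.1, and -3.20 and -2.30 without sham library 1 and exposed library 3 together, where Calca was 0.56. Pecam1 was -0.087 with limma and a pseudocount of 1, -0.088 with one of 0.1 and -0.013 with the replicate block. Ager was 0.00065 with RLE factors, 0.00071 with DESeq2 and 0.00073 with filterByExpr. Without 1 library, Retn ran from -3.21 to 3.88, Adipoq from -2.33 to 3.52, Iyd from -0.14 to 0.83, mt-Nd5 from -0.29 to 0.68, Pmp22 from -0.44 to 0.046, Pecam1 from -0.26 to 0.26, Calca from -0.58 to 0.53 and Ager from -0.18 to 0.21.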

Other observations

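Counts below are of genes at an unadjusted p under 0.05, of which 7.24% of all genes were higher and 6.76% lower after exposure. Among mesenchymal lists, pericytes had 3 higher and 0 lower of 13, with Cspg4, the NG2 proteoglycan of pericytes, at a log2 fold change of 0.90 ± 0.21 and Pdgfrb, their growth factor receptor, at 0.56 ± 0.13. Smooth muscle had 0 higher and 2 lower of 19. These were Pln, which the heart muscle list also holds, and Myl9, a myosin light chain, at -0.55 ± 0.22. Proteoglycan and hyaluronan genes had 3 higher and 1 lower of 28. Has1, a hyaluronan synthase, was 6.15, 3.98 and 5.56 CPM in the sham libraries and 0.878, 0.274 and 1.33 CPM in the exposed libraries (-2.67 ± 0.55, adjusted p = 0.136). In the BMP and TGF-beta pathway 6 were higher and 2 lower of 44, with the ligand Bmp4 at 0.64 ± 0.17 and the shared mediator Smad4 at 0.56 ± 0.13. The WNT pathway had 2 higher and 1 lower of 38, with the ligand Wnt5a at 0.68 ± 0.18 and Wnt10b at -0.77 ± 0.23. Growth and imprinted genes had 6 higher and none lower of 28, and artery and vein genes 5 and 3 of 26. Higher and lower counts moved by over 1.5 times without sham library 1, where 2.88% and 3.14% of all genes were higher and lower, to 1 and 1 for proteoglycan, 0 and 1 for smooth muscle, 1 and 1 for WNT, 4 and 0 for BMP and TGF-beta and 3 and 0 for growth genes, and without exposed library 3, where the shares were 6.77% and 7.56%, to 2 and 3 for proteoglycan, 0 and 7 for smooth muscle, 1 and 7 for WNT and 5 and 1 for growth genes.

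Among lymphoid lists there were 1 higher and 1 lower of 23 T cell genes, 2 and 1 of 18 B cell genes, 0 and 2 of 17 NK and cytotoxic genes, and 1 and 2 of 8 lymph node genes. Fcer2a, the low-affinity IgE receptor of B cells, had 1.26 ± 0.25, and Cd28, the T cell costimulatory receptor, -0.60 ± 0.16. Plasma cell genes had 1 higher and 4 lower of 12, and interstitial macrophage and monocyte genes 2 and 3 of 26, with the fractalkine receptor Cx3cr1 at 20.7, 21.2 and 19.3 CPM in the sham libraries and 31.6, 41.8 and 33.6 CPM in the exposed libraries (0.81 ± 0.15, adjusted p = 0.122). Among stress lists, hypoxia and glycolysis had 1 higher and 2 lower of 31, NRF2 targets 1 and 2 of 24, the amino acid response 0 and 2 of 26, and senescence genes 2 and 1 of 18. Complement and coagulation had 2 higher and 5 lower of 28, and the prostanoid, angiotensin, endothelin and kinin systems 4 and 6 of 29. None of the 13 mitochondrially encoded, 8 liver, 8 nerve, 3 oesophagus, cartilage and thyroid or 4 sex-linked genes reached that p in edgeR's fit of all 6 libraries, and erythroid genes had 0 higher and 1 lower of 12. In the same way the counts were, without sham library 1, 0 and 1 for T cell, 2 and 0 for B cell, 0 and 1 for NK, 1 and 1 for lymph node, 0 and 1 for plasma cell, 2 and 1 for interstitial macrophage, 1 and 1 for hypoxia, 0 and 1 for NRF2, 1 and 1 for senescence, 2 and 3 for coagulation, 2 and 4 for prostanoid-group and 0 and 0 for erythroid genes. Without exposed library 3 they were 2 and 0 for B cell, 0 and 1 for NK, 2 and 5 for plasma cell, 3 and 5 for interstitial macrophage, 1 and 5 for hypoxia, 0 and 2 for NRF2, 1 and 3 for senescence, 2 and 9 for coagulation, 2 and 5 for prostanoid-group and 0 and 2 for erythroid genes, 1 of the liver and 1 of the nerve genes was lower at that p, and of the sex-linked genes 1 was higher and 1 lower.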
